A study of Homo sapiens with 8 samples.

Results

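Genes that copy the genome and genes that divide the cell were followed in xenograft tumours grown from H2122, a human lung cancer line in long use. The set was a fixed list of 50 gene symbols, 20 of S phase and 30 of mitosis. Of these, 49 were found among the 59050 gene symbols of the count files, 48 had enough reads to be tested among 16219 genes, and KIF23 was not analysed here. The study compared 4 tumours of parental cells, labelled WT, with 4 tumours of cells labelled SMARCA4 KO, which carry a knockout of SMARCA4, the ATP-driven motor of SWI/SNF complexes that move nucleosomes, and all 8 tumours had received vehicle. The labels used here do not say whether the knockout cells are 1 clone, which host animals carried the tumours, or whether the tumours of a group came from separate animals, so p-values measure the spread between these samples, which may in part be technical.

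A cell licenses its replication origins in G1 by loading the MCM helicase, fires them in S phase with cyclin-dependent kinase activity, and makes nucleotides for the new strands. It then builds cyclin B with CDK1, condenses its chromosomes, checks their attachment to the spindle and separates them through the anaphase-promoting complex. E2F factors drive the S phase genes, the MuvB complex with MYBL2 and FOXM1 drives the mitotic genes later, and the DREAM complex holds genes of both groups down in resting cells, so the transcripts of both groups are abundant in cycling cells and scarce in resting cells. In bulk RNA, fewer cycling cells and less RNA per cycling cell cannot be told apart.

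The promoters of the 2 groups are shown first, because E2F sites and CHR elements are the known entry points of the S phase and mitotic regulators. RefSeq windows on GRCh38.p14, from 250 bases before to 50 bases after an annotated start, matched 40 of the 49 genes, 17 of S phase and 23 of mitosis. No window was found for CDK2, MCM4, MCM5, FOXM1, AURKA, TTK, UBE2C, TPX2 and BIRC5. The promoter of CDK2, which carries a difference described further on, was therefore not read. The 150 bases before the start are printed for CDT1, KIF20A and POLE, which carry the differences described further on or lie next to the threshold, for CCNB2, a mitotic cyclin, and for PCNA and MKI67, the usual proliferation markers. Capitals mark 3 motifs searched on both strands: an E2F site, written TTTCCCGC, TTTCGCGC, TTTGCCGC or TTTGGCGC, the CCAAT box bound by NF-Y, and the cell cycle genes homology region (CHR), written TTTGAA or, in its other form, TTCGAA. Matches can overlap: in POLE the NF-Y box runs into its own reverse complement, and in MKI67 it shares a base with a CHR. Windows follow the first start that RefSeq lists.
CDT1, chr16:88803639-88803788, plus strand: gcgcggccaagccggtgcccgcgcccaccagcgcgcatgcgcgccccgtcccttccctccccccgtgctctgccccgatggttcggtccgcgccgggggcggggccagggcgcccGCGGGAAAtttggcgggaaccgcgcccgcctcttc
POLE, chr12:132687343-132687492, minus strand: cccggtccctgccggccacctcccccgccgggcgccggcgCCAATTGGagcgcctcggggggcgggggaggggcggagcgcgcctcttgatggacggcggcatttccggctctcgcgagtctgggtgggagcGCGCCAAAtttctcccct
PCNA, chr20:5126623-5126772, minus strand: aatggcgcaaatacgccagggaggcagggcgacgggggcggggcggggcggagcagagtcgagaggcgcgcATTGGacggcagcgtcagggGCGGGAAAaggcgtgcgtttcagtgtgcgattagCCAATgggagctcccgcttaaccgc
KIF20A, chr5:138178962-138179111, plus strand: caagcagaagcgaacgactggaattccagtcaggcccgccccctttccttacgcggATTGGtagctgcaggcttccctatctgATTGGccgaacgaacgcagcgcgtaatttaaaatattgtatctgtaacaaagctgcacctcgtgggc
CCNB2, chr15:59104996-59105145, plus strand: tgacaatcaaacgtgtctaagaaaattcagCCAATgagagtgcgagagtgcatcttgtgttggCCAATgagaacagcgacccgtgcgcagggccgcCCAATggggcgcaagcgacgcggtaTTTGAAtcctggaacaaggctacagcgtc
MKI67, chr10:128126424-128126573, minus strand: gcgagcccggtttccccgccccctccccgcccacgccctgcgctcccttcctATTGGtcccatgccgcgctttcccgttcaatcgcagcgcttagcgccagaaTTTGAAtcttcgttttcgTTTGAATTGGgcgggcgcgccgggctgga

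CDT1, POLE and PCNA each held an E2F site between 11 and 59 bases before the start. CCNB2 held 3 CCAAT boxes and then a CHR at 29 to 24 bases before the start, and MKI67 held a CHR at the same distance and another at 47 to 42 bases. KIF20A held 2 CCAAT boxes in reverse orientation and no CHR of these letters, which says only that these letters are not in this window. Over the full windows, 14 of 17 S phase genes (82.4%) and 3 of 23 mitotic genes (13.0%) held an E2F site, against 6.34% of the 10990 tested genes in the table and 3.99% of all 27305 genes in it. A CHR was held by 2 of 17 S phase genes (11.8%) and 16 of 23 mitotic genes (69.6%), against 15.9% of tested genes and 19.5% of all. CCAAT boxes were common to both groups, with 13 of 17 (76.5%) and 20 of 23 (87.0%), against 42.7% of tested genes and 39.7% of all. A gene was counted once if any of its listed windows matched, and a match describes letters, not binding. MYBL2 and CENPE held none of the 3 motifs, and MCM6, CDK1, CENPA and NUSAP1 held all of them.

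**Figure D1:**
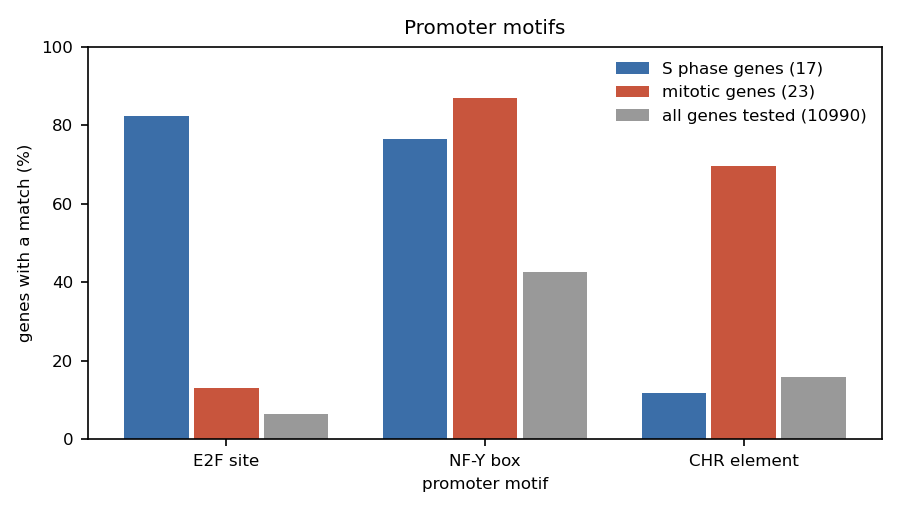
Share of genes (%) whose promoter window holds each motif, for the 17 S phase genes, the 23 mitotic genes and the 10990 tested genes found in the promoter table. E2F sites stand at 82.4% in S phase genes and CHR elements at 69.6% in mitotic genes.

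The libraries held 19785922 to 23191698 gene counts in parental and 20662882 to 21981123 in knockout tumours. SMARCA4 itself was at 220, 228, 198 and 235 CPM (a gene's counts scaled to a common library size) in parental tumours 1 to 4 and at 29.5, 26.1, 22.3 and 31.0 CPM in knockout tumours 1 to 4, so each library lay on the side of its label (log2 fold change -3.02, SE 0.117, edgeR adjusted p = 1.45e-07). The epithelial markers EPCAM, CDH1, KRT7, KRT8, KRT18 and KRT19 summed to 5747 to 6918 CPM in parental and 4627 to 6227 CPM in knockout tumours. Of 4 lung adenocarcinoma markers, NKX2-1 and SFTPC had no count in any of the 8 libraries (each 0 allows up to 3 counts), and the list summed to at most 1.51 CPM. The 8 leukocyte markers summed to 9.76 to 64.7 CPM in parental and 17.6 to 30.5 CPM in knockout tumours. Fibroblast markers summed to 179 to 606 and 342 to 602 CPM, endothelial markers to 7.24 to 18.0 and 8.67 to 15.2 CPM, and skeletal muscle markers to 0.134 to 32.0 and 0.0974 to 14.4 CPM. Single markers changed within these sums by edgeR: LUM rose by 5.00 (33 counts over the parental and 1053 over the knockout libraries), VWF fell by 2.37, KRT7 fell by 0.71 and KRT19 fell by 1.01 on the log2 scale (adjusted p = 1.98e-06, 0.00041, 0.000333 and 8.48e-05). Mitochondrial genes took 4.74% to 9.47% of the counts in parental and 8.57% to 10.9% in knockout tumours, and the part of any of these measures in the results was not tested.

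Within each group, the replication and mitosis genes were high and low in the same tumours. Parental replicate 4 was the highest parental tumour for 46 of the 48 tested genes (95.8%), against 29.3% of all genes tested. POLE and E2F1, highest in parental replicate 1, were the exceptions. Parental replicates 1 and 4 were the upper pair for 43 of 48 genes (89.6%), against 23.1% of all genes tested. The lowest parental tumour was replicate 2 for 31 genes and replicate 3 for 17. Among knockout tumours, replicate 4 was highest for 42 genes and replicate 3 for 6, and replicate 1 was lowest for 38 and replicate 2 for 10. Over all genes tested, knockout replicate 4 was highest for 34.4% and knockout replicate 1 lowest for 22.9%.

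**Figure D2:**
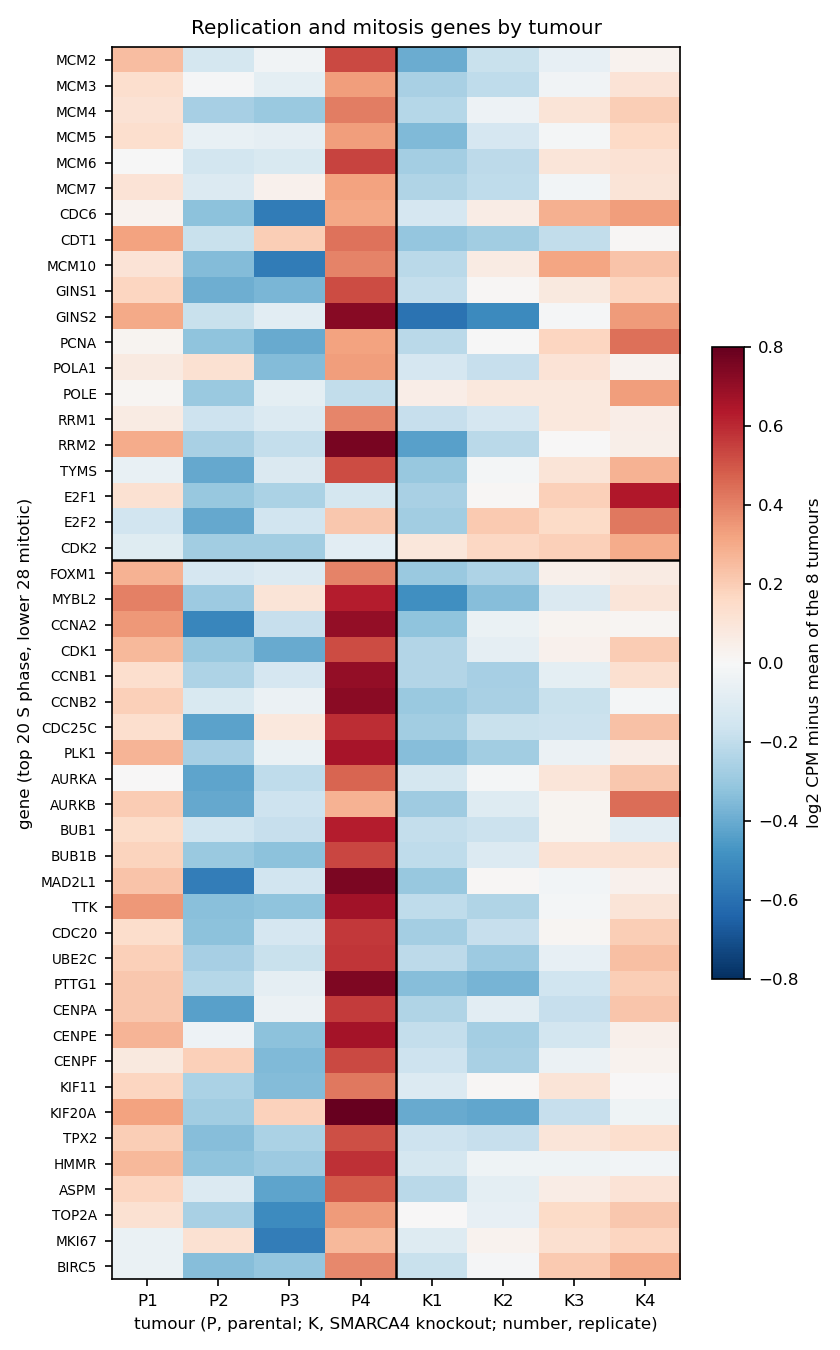
Log2 CPM of each of the 48 tested genes (rows, 20 of S phase above 28 of mitosis) in each of the 8 tumours (columns), minus the mean over the tumours. Parental replicate 4 is the highest parental tumour for 46 genes, and knockout replicate 1 is the lowest knockout tumour for 38.

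S phase and mitotic genes followed the same tumours. The mean log2 CPM of the 20 S phase genes was 5.81, 5.49, 5.52 and 6.06 in parental tumours 1 to 4 and 5.47, 5.63, 5.80 and 5.93 in knockout tumours 1 to 4. That of the 28 mitotic genes was 5.87, 5.42, 5.48 and 6.24 in parental and 5.45, 5.52, 5.67 and 5.80 in knockout tumours. Both groups were thus high in parental replicates 1 and 4 and knockout replicate 4 and low in parental replicates 2 and 3 and knockout replicate 1. The group means were 5.72 ± 0.269 and 5.71 ± 0.199 for S phase genes and 5.75 ± 0.383 and 5.61 ± 0.158 for mitotic genes (log2 CPM, SD, n = 4 each), and the groups overlapped for both. The difference in mean log2 CPM between mitotic and S phase genes was 0.06, -0.07, -0.04 and 0.18 in parental and -0.03, -0.11, -0.13 and -0.13 in knockout tumours. Relative to their S phase genes, the mitotic genes were lower in knockout tumours on average, at -0.10 ± 0.0490 against 0.03 ± 0.114 (SD, n = 4 each), and the lowest parental tumours overlapped the highest knockout tumour.

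The spread among parental tumours was larger for mitotic than for S phase genes in these samples. The SD of log2 CPM had a median of 0.40 over the mitotic genes in parental tumours and 0.16 in knockout tumours, and of 0.29 and 0.19 over the S phase genes. Over all genes tested the medians were 0.22 and 0.17. The parental SD exceeded the knockout SD for all 28 tested mitotic genes and 16 of 20 S phase genes, and for 65.0% of all genes tested. From the lowest to the highest parental tumour, MAD2L1, a spindle checkpoint protein, differed 2.47-fold, CCNA2 2.34-fold and KIF20A 2.12-fold. This parental range was wider than the fitted fold between the groups for 47 of the 48 genes (97.9%), against 73.2% of all genes tested and 92.4% of those not called, so it is near that of uncalled genes in general. For CDK2 the parental range was 1.14-fold and the group difference 1.29-fold.

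Leukocyte markers ran the other way across the tumours. Their sum was 11.8, 64.7, 51.1 and 9.76 CPM in parental tumours 1 to 4 and 30.5, 24.4, 24.7 and 17.6 CPM in knockout tumours 1 to 4. The 3 tumours with the lowest sums were the 3 with the highest mean of mitotic genes, and the 3 with the highest sums were the 3 with the lowest mean. All 7 leukocyte markers that passed the filter varied more among parental than among knockout tumours, and none of the 8 was at 0 in any group. With the mean log2 CPM of these 7 markers as a covariate, edgeR called 12 of the 48 genes, 2 higher and 10 lower in knockout tumours, of 5294 called among all genes (32.6%). The 2 parental tumours with the highest leukocyte sums are also those with the lowest proliferation genes. Leaving both out raises the parental mean of these genes by construction and so favours lower calls in knockout tumours. That fit called 24 of 48 genes lower and none higher, with 21 of them mitotic (POLE at a log2 fold change of 0.22 and CDK2 at 0.27 were not called), of 4946 called among all genes (29.3%). Both fits were added after the data were seen. Each builds on the opposite order of leukocyte markers and these genes in the same tumours, so their calls are not independent of that order.

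**Figure D3:**
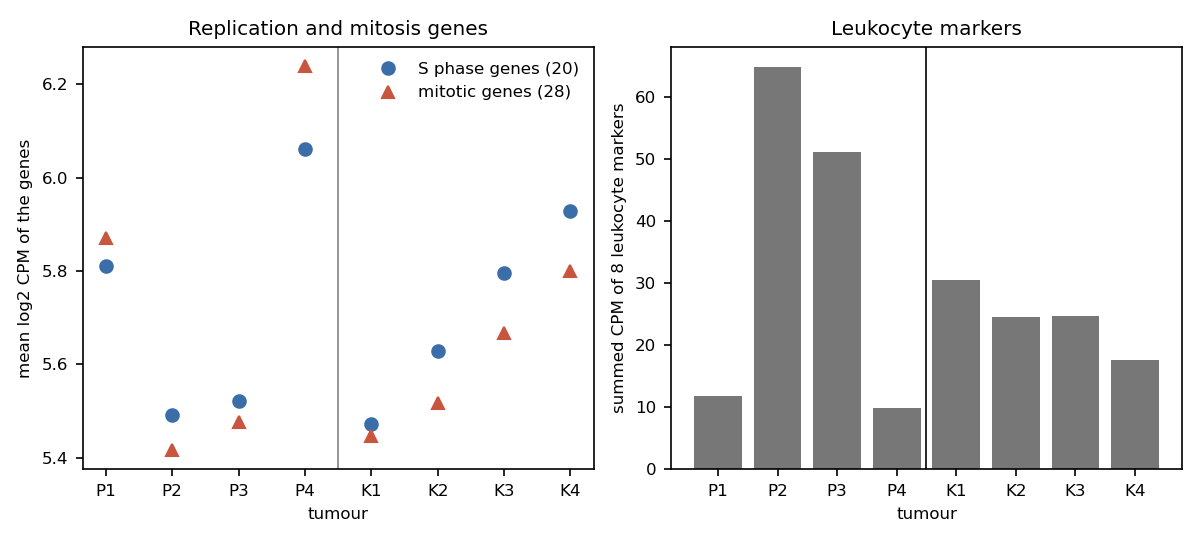
Left, mean log2 CPM of the 20 S phase genes (circles) and the 28 mitotic genes (triangles) in each tumour (P, parental; K, knockout). Right, summed CPM of 8 leukocyte markers in the same tumours, from 9.76 CPM in parental replicate 4 to 64.7 CPM in parental replicate 2.

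Between the groups, few of these genes were called. With edgeR (quasi-likelihood, adjusted by Benjamini-Hochberg over all 16219 genes), 3 of the 48 had an adjusted p under 0.05 (6.25%), against 27.0% of all genes tested. The median SE of the log2 fold change was 0.174 for the 48 genes and 0.143 for all genes tested. The part of this larger SE in the lower share called was not tested. CDK2 was higher in knockout tumours, where 13.0% of all genes were called higher, and CDT1 and KIF20A were lower, where 14.1% were called lower. At an unadjusted p under 0.05 there were 3 S phase and 3 mitotic genes, against 6170 of all 16219 genes tested. The groups did not overlap for 2 genes, CDK2 and POLE, both higher in knockout tumours, against 14.0% of all genes with all knockout values above all parental values. None of the 48 had all knockout values below all parental values, against 15.3% of all genes. The 95% interval of the fold change lay within 2-fold in both directions for all 48 genes and within 1.5-fold for 25. Of all 16219 genes tested, it lay within 2-fold for 11733 and within 1.5-fold for 7719. For the other 23 of the 48 genes a change of 1.5-fold was not excluded at this number of tumours.

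**Figure D4:**
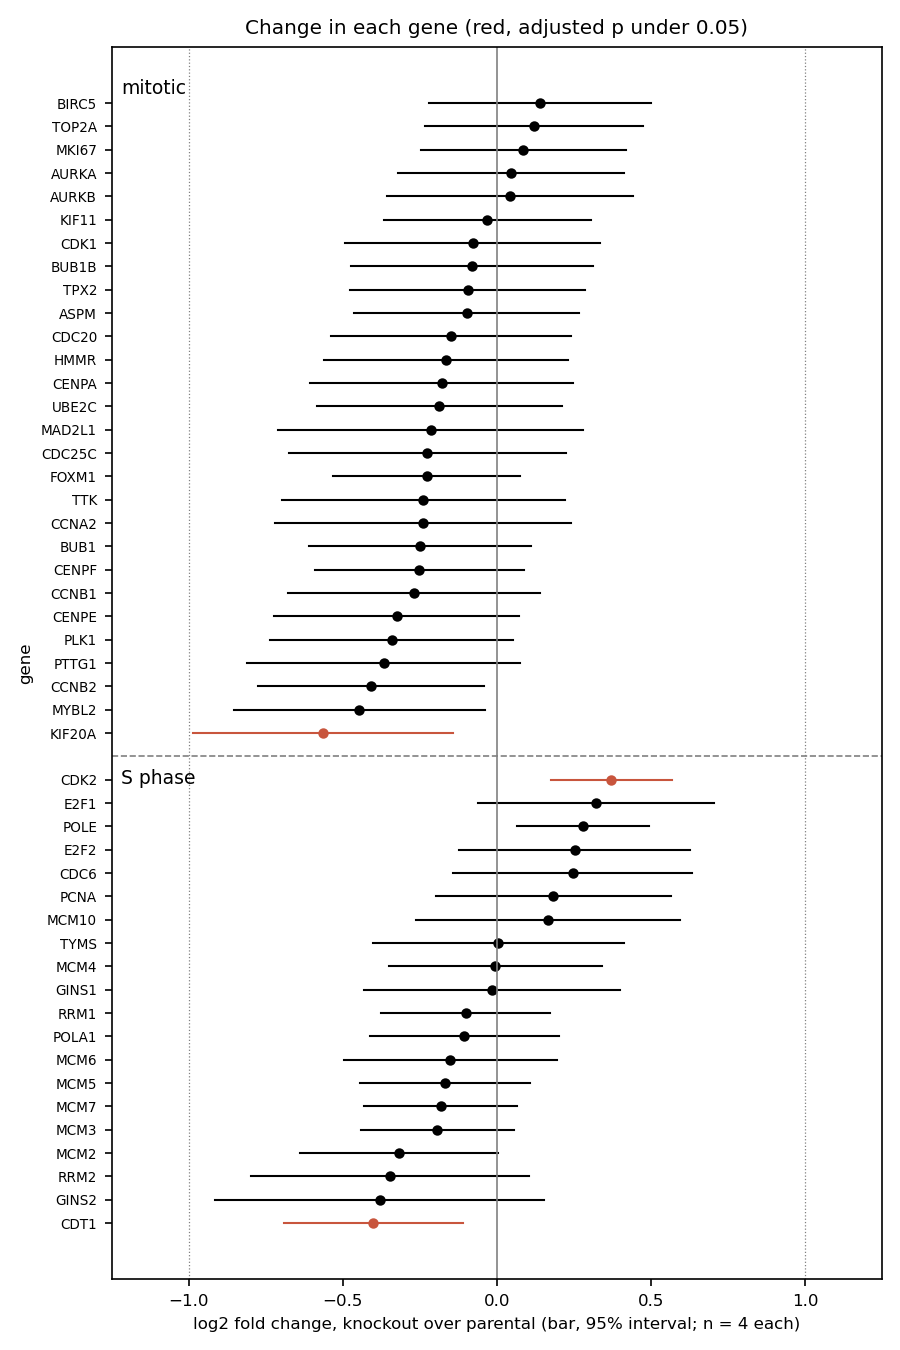
Log2 fold change of knockout over parental tumours with its 95% interval (edgeR, n = 4 each) for the 28 mitotic genes above and the 20 S phase genes below, with red marking adjusted p under 0.05. The intervals span from -0.99 for KIF20A to 0.70 for E2F1, and 23 of 28 mitotic genes lie left of 0.

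Of the 8 licensing factors, CDT1 passed the test, and 7 of 8 had negative log2 fold changes, with a median of -0.18. CDT1 (ENSG00000167513, chromosome 16, 88803213 to 88809258, plus strand, GENCODE 29 on GRCh38), which loads the MCM helicase onto origins together with CDC6, was at 40.1, 28.5, 36.8 and 43.5 CPM in parental tumours 1 to 4 and 26.0, 26.5, 28.1 and 32.3 CPM in knockout tumours 1 to 4. Only parental replicate 2 lay within the knockout range. CDT1 fell by 0.40 on the log2 scale (SE 0.132, edgeR adjusted p = 0.0429), to 0.757 of the parental level. The call was present in 9 of the 11 alternatives other than leaving out 1 tumour (not limma-voom, not upper-quartile scaling). The 9 include the leukocyte covariate and the fit without parental replicates 2 and 3, both added after the data were seen. Of the 8 fits that left out 1 tumour, 2 kept the call, those without parental replicate 2 and without knockout replicate 4. Adjusted p-values over all 19 ran from 0.00433 to 0.117, with a log2 fold change of -0.58 to -0.32 throughout. CDC6 had a log2 fold change of 0.25 (95% interval -0.14 to 0.63), with 29.7 to 54.3 CPM in parental and 39.7 to 55.0 CPM in knockout tumours.

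The helicase subunits MCM2 to MCM7, which unwind DNA ahead of the fork, all had negative log2 fold changes and none passed the test. MCM2 was at 68.4, 52.4, 56.5 and 83.2 CPM in parental and 43.9, 51.0, 55.2 and 58.8 CPM in knockout tumours, with overlapping groups (log2 fold change -0.32, SE 0.146, edgeR adjusted p = 0.134), and it was called without parental replicate 2 (-0.41, adjusted p = 0.0475). Of the 49 genes, 17 share exon bases with another gene in GENCODE 29, and 4 share over 20%. An antisense gene shares 22.7% of the MCM2 exon bases and held 2 to 7 counts per library, against 940 to 1959 for MCM2. Without knowledge of strand, reads from the shared bases cannot be told apart. The others ran from -0.19 for MCM3 to -0.01 for MCM4, with adjusted p-values from 0.240 to 0.986. MCM4 was at 172 to 281 CPM in parental and 180 to 243 CPM in knockout tumours. Per kilobase of exon, MCM7 was the most abundant subunit at 53.8 ± 6.88 RPKM in parental and 47.4 ± 5.35 in knockout tumours, and MCM5 the least at 10.4 ± 1.42 and 9.29 ± 1.37 (SD, n = 4 each). RPKM here uses the merged exons of all annotated transcripts, which understates genes with long, little used exons.

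Origin firing and fork genes did not pass the test, with POLE next to the threshold. MCM10, GINS1 and GINS2 activate the loaded helicase, and GINS2 had the lowest fold change of the 3, at 14.5, 10.3, 11.1 and 19.4 CPM in parental and 7.79, 8.23, 11.6 and 14.8 CPM in knockout tumours. The 2 lowest knockout values of GINS2 lay below every parental value and the others overlapped (log2 fold change -0.38, SE 0.243, edgeR adjusted p = 0.281). MCM10 and GINS1 were at 0.17 and -0.02 on that scale, and POLA1, the primase-bound polymerase subunit, at -0.11 (adjusted p = 0.575, 0.963 and 0.619). POLE (ENSG00000177084, chromosome 12, 132623753 to 132687365, minus strand), the catalytic subunit of the leading strand polymerase, was at 90.6, 72.8, 84.7 and 78.3 CPM in parental and 92.9, 95.0, 95.1 and 113 CPM in knockout tumours. The groups of POLE did not overlap, at a log2 fold change of 0.28 (SE 0.0971, 95% interval 0.07 to 0.49) and an edgeR adjusted p of 0.0537. Of the 19 alternatives, 5 called it higher, among them the fit without parental replicate 1 and the later added leukocyte covariate. Adjusted p-values over the 19 ran from 0.0387 to 0.164. PCNA, the sliding clamp, was at 148, 117, 110 and 182 CPM in parental and 126, 145, 164 and 198 CPM in knockout tumours, which overlap (log2 fold change 0.18, 95% interval -0.20 to 0.56, adjusted p = 0.475). PCNA was the most abundant of the 48 genes per kilobase, at 94.8 ± 22.4 and 108 ± 20.8 RPKM (SD, n = 4 each).

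None of the 3 enzymes of nucleotide supply passed the test. RRM2, the regulated subunit of ribonucleotide reductase, was at 224, 152, 160 and 308 CPM in parental and 135, 157, 182 and 188 CPM in knockout tumours. Parental replicates 1 and 4 lay above all knockout tumours and the other parental tumours within them (log2 fold change -0.35, SE 0.206, edgeR adjusted p = 0.244). RRM1, its partner, and TYMS, which makes thymidylate, had log2 fold changes of -0.10 and 0.0045, with adjusted p-values of 0.594 and 0.990. TYMS shares 46.6% of its exon bases with genes on the opposite strand, mainly ENOSF1, which held 902 to 1434 counts per library. RRM2 shares 20.2% with a gene on the same strand that held 6 to 16 counts. The counts of TYMS and RRM2 are less certain for this reason.

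The regulators of S phase all had positive log2 fold changes, and CDK2 rose. CDK2 (ENSG00000123374, chromosome 12, 55966769 to 55972784, plus strand), the kinase that cyclin E and cyclin A activate to fire origins, was at 30.5, 26.9, 26.8 and 30.7 CPM in parental and 34.8, 36.6, 37.1 and 40.0 CPM in knockout tumours. All knockout tumours lay above all parental tumours, and the means were 28.7 ± 2.15 and 37.1 ± 2.19 CPM (SD, n = 4 each). CDK2 rose 1.29-fold (log2 fold change 0.37, SE 0.0893, edgeR adjusted p = 0.00995), and was called in 18 of 19 alternatives. The exception was the fit without parental replicates 2 and 3, at 0.27 and an adjusted p of 0.0694. PMEL and an antisense gene share 16.8% of the CDK2 exon bases from the opposite strand, and they held 27 to 59 and 0 to 10 counts per library. E2F1, an activator of S phase genes, was at 30.1, 22.5, 23.3 and 25.1 CPM in parental and 23.2, 28.0, 31.6 and 43.3 CPM in knockout tumours, with overlapping groups and the highest value in knockout replicate 4 (log2 fold change 0.32, SE 0.174, adjusted p = 0.204). E2F2 had a log2 fold change of 0.25 (adjusted p = 0.308) and stood at 2.07 ± 0.379 RPKM in parental and 2.47 ± 0.477 RPKM in knockout tumours (SD, n = 4 each), near CDC25C, at 2.71 ± 0.769 and 2.32 ± 0.389, at the low end of the 48 genes.

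**Figure D5:**
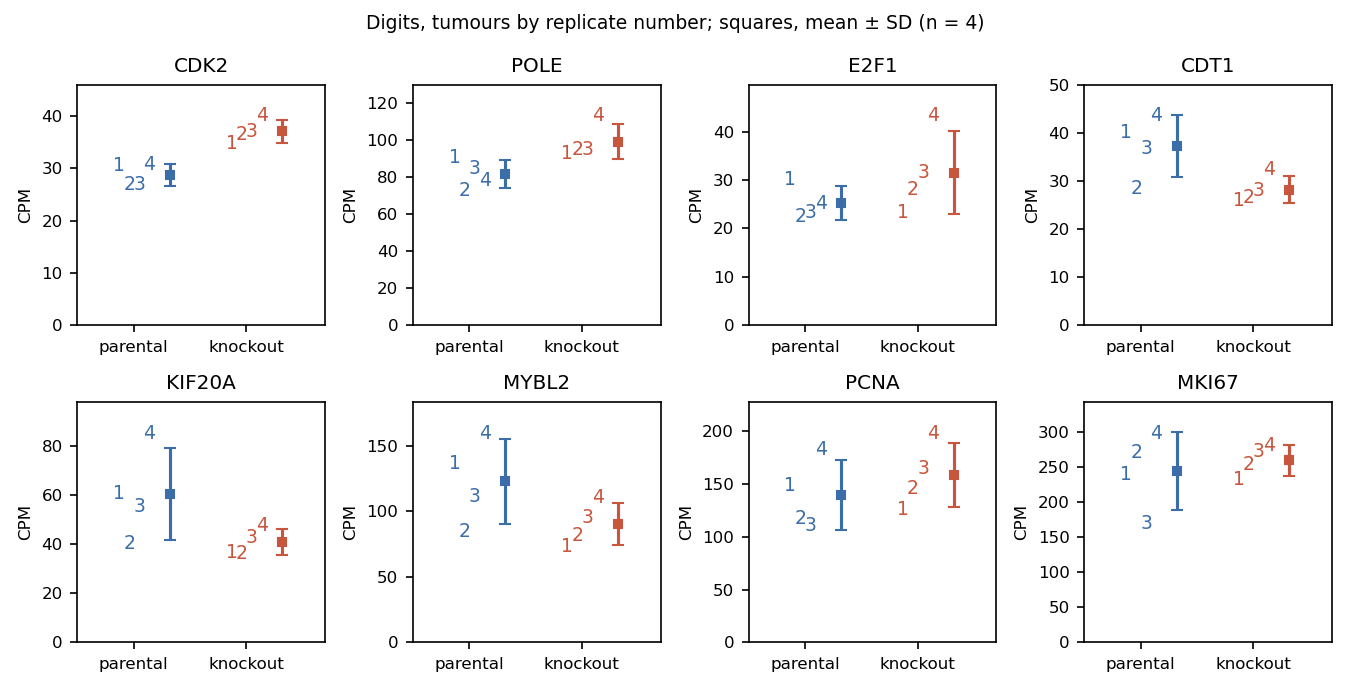
CPM of 8 genes in each tumour, with digits giving the replicate number and squares the mean ± SD (n = 4 each). CDK2 and POLE do not overlap between groups, and for KIF20A and CDT1 only parental replicate 2 lies within the knockout range.

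The mitotic genes had a median log2 fold change of -0.20 (interquartile range -0.26 to -0.08), against -0.06 (-0.19 to 0.20) for the S phase genes and 0.0034 (-0.23 to 0.28) for all genes tested. Fitted values were negative for 23 of 28 mitotic and 12 of 20 S phase genes, against 8027 of all 16219 genes tested. Without parental replicate 4 they were negative for 15 mitotic and 8 S phase genes. The mitotic median stayed between -0.22 and -0.16 under every scaling tried, and it came to -0.00069 without parental replicate 4. Without that tumour the S phase median was 0.088.

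The transcription factors of the mitotic programme were lower on average and not called. MYBL2, which opens the mitotic programme with the MuvB complex, was at 137, 84.3, 111 and 159 CPM in parental and 73.3, 81.4, 95.3 and 110 CPM in knockout tumours. Parental replicates 1, 3 and 4 lay above all knockout tumours and replicate 2 within them (log2 fold change -0.45, SE 0.185, edgeR adjusted p = 0.0995). FOXM1, the later activator, was at 83.5, 62.8, 63.9 and 90.7 CPM in parental and 56.1, 58.0, 70.8 and 71.9 CPM in knockout tumours, which overlap (log2 fold change -0.23, adjusted p = 0.256). MYBL2 was called lower in 4 of 19 alternatives, among them the fit without parental replicate 2 (-0.59, edgeR adjusted p = 0.0148). FOXM1 was called lower in 2, those with the leukocyte covariate and without parental replicates 2 and 3. These 2 fits, added after the data were seen, are also among the 4 of MYBL2.

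Cyclins and CDK1, which bring the cell into mitosis, showed the same tumours high and low. CCNB2 was at 61.1, 49.1, 52.0 and 88.5 CPM in parental and 43.7, 44.8, 47.3 and 53.0 CPM in knockout tumours, where only knockout replicate 4 lay within the parental range (log2 fold change -0.41, SE 0.167, edgeR adjusted p = 0.0940). Without parental replicate 2 it was called, at -0.51 with an adjusted p of 0.0346. CCNB1 was at 112, 86.3, 93.2 and 166 CPM in parental and 86.9, 85.0, 96.8 and 112 CPM in knockout tumours, and the groups overlapped (log2 fold change -0.27, adjusted p = 0.321). CDK1 was at 78.5, 53.2, 49.7 and 94.1 CPM in parental and 55.7, 62.4, 67.2 and 75.6 CPM in knockout tumours. Every knockout value of CDK1 lay between the parental pairs (log2 fold change -0.08, 95% interval -0.49 to 0.34, adjusted p = 0.799). CCNA2 and CDC25C, the phosphatase that activates CDK1, had log2 fold changes of -0.24 and -0.23, with adjusted p-values of 0.460 and 0.455.

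Mitotic kinases and checkpoint genes gave no call in this fit. PLK1, which matures the centrosomes, had a log2 fold change of -0.34 (adjusted p = 0.188), while the Aurora kinase genes AURKA and AURKB were at 0.05 and 0.04 (adjusted p = 0.869 and 0.891). The checkpoint genes BUB1, BUB1B, MAD2L1 and TTK, which hold anaphase until the chromosomes attach, ran from -0.25 to -0.08, with adjusted p-values from 0.292 to 0.779. Their targets and partners at anaphase, CDC20, UBE2C and the securin gene PTTG1, ran from -0.37 to -0.15 (adjusted p-values 0.209 to 0.576). The centromere genes CENPA, CENPE and CENPF ran from -0.33 to -0.18 (0.215 to 0.538). BUB1B shares 10.2% of its exon bases with the read-through gene BUB1B-PAK6.

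Among spindle and cytokinesis genes, KIF20A changed. KIF20A (ENSG00000112984, chromosome 5, 138178719 to 138187715, plus strand), the kinesin that carries Aurora B to the central spindle for cytokinesis, was at 60.7, 40.1, 55.2 and 85.1 CPM in parental and 36.7, 36.3, 42.6 and 47.4 CPM in knockout tumours. Parental replicate 2 lay within the knockout range and the other parental tumours above it. KIF20A fell by 0.57 on the log2 scale (SE 0.192, edgeR adjusted p = 0.0487), to 0.676 of the parental level. Of the 8 fits that left out 1 tumour, the one without parental replicate 2 kept the call. The other 7 lost it, with adjusted p-values up to 0.125, and without parental replicate 4 the log2 fold change was -0.36, the smallest of the 8. BRD8 and CDC23 share 5.05% of its exon bases from the opposite strand. The motor gene KIF11 and the spindle factors TPX2, HMMR and ASPM had log2 fold changes from -0.17 to -0.03 and adjusted p-values from 0.542 to 0.906. NUSAP1, a microtubule bundling protein, had only 3 to 12 counts per library and was not tested. A same-strand gene, AC087721.2, shares 62.2% of the NUSAP1 exon bases and had 0 counts in every library, and whether reads of both were set aside as ambiguous was not tested.

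The chromosome genes used to score proliferation in tissue had positive fitted values. MKI67, which coats mitotic chromosomes, was at 240, 271, 169 and 298 CPM in parental and 231, 254, 272 and 281 CPM in knockout tumours, all knockout values inside the parental range (log2 fold change 0.09, 95% interval -0.25 to 0.42, edgeR adjusted p = 0.719). TOP2A, which untangles sister chromatids, was at 230, 176, 149 and 267 CPM in parental and 212, 202, 235 and 245 CPM in knockout tumours (log2 fold change 0.12, 95% interval -0.23 to 0.47, adjusted p = 0.629). Here too every knockout value lay inside the parental range. BIRC5, the survivin subunit of the chromosomal passenger complex, was at 47.7, 39.0, 39.9 and 64.7 CPM in parental and 43.7, 49.1, 57.2 and 60.8 CPM in knockout tumours (log2 fold change 0.14, adjusted p = 0.574). For these genes a change of 1.5-fold lay outside the 95% interval in both directions.

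Further genes of the same processes were read from lists of 49 other replication genes, 76 other mitotic genes (75 tested) and 16 RB and DREAM regulators. Over all genes tested, 27.0% were called, 13.0% higher and 14.1% lower. Of the other replication genes, 4 were called (8.16%), 2 higher and 2 lower, with a median log2 fold change of -0.01. Of the other mitotic genes, 3 were called (4.0%), 2 higher and 1 lower, with a median of -0.03, nearer to 0 than that of the 28 mitotic genes above. Among the regulators 1 of 16 was called (6.25%), and the median was -0.07. Parental replicates 1 and 4 were the upper pair for 43 of 49 and 72 of 75 genes in the first 2 lists.

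Among the called genes, CCNE1, which encodes a cyclin E partner of CDK2, was at 9.51, 6.0, 9.36 and 12.6 CPM in parental and 14.6, 13.5, 16.6 and 19.3 CPM in knockout tumours. The groups of CCNE1 did not overlap, and it rose 1.71-fold (log2 fold change 0.77, SE 0.200, edgeR adjusted p = 0.0143), a call made in all 19 alternatives. ORC2, an origin recognition subunit, was at 34.2, 31.6, 33.9 and 37.6 CPM in parental and 41.3, 39.0, 39.8 and 44.1 CPM in knockout tumours, without overlap. It rose by 0.26 on the log2 scale (adjusted p = 0.0467), a call made in 6 of 19 alternatives and, of the fits that left out 1 tumour, in the one without parental replicate 4.

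POLD2, a subunit of the lagging strand polymerase, was at 170, 126, 141 and 169 CPM in parental and 103, 106, 114 and 132 CPM in knockout tumours, where parental replicate 2 overlapped. It fell by 0.41 on the log2 scale (edgeR adjusted p = 0.0241), and the call was lost without parental replicate 1 or 4 or knockout replicate 1, 2 or 3, with adjusted p-values up to 0.0774.

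CDC25B, a phosphatase that starts CDK1 activation, was at 67.1, 42.3, 51.8 and 69.6 CPM in parental and 71.7, 84.6, 79.2 and 89.2 CPM in knockout tumours. NCAPD3, a condensin II subunit, was at 48.7, 44.3, 36.2 and 49.3 CPM in parental and 52.5, 55.6, 58.5 and 61.1 CPM in knockout tumours. Neither overlapped between the groups, and they rose by 0.49 and 0.35 on the log2 scale (edgeR adjusted p = 0.0290 and 0.0315). Both calls were lost without parental replicate 3 or knockout replicate 2, 3 or 4, and that of NCAPD3 also without parental replicate 2, with adjusted p-values up to 0.0739 and 0.0793.

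DEPDC1B, a gene needed for cells to detach at mitotic entry, was at 11.5, 8.73, 9.94 and 17.3 CPM in parental and 4.29, 5.35, 5.68 and 6.39 CPM in knockout tumours. All knockout tumours lay below all parental tumours, with a log2 value of -1.13 for the change (SE 0.216, edgeR adjusted p = 0.00262), and the call stood in all 19 alternatives. TFDP2, a dimer partner of the E2F factors, was at 35.5, 34.0, 40.9 and 39.5 CPM in parental and 22.2, 26.1, 25.7 and 25.1 CPM in knockout tumours, also without overlap (log2 fold change -0.60, SE 0.0960, adjusted p = 0.000852) and called in all 19 alternatives. LIN52, a MuvB subunit, had the next smallest p of its list, at 7.86, 10.5, 9.54 and 10.1 CPM in parental and 10.96, 12.9, 10.95 and 13.4 CPM in knockout tumours, with a log2 fold change of 0.34 and an adjusted p of 0.0795.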

How the data were processed

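RNA of 8 xenograft tumours was sequenced, and the groups and replicate numbers come from the sample titles. In the title of parental replicate 4 the number after CON differs from the replicate number, and in the other titles they are the same. The authors deposited unnormalized read counts for each gene symbol, 1 file per tumour, and the submitters' processing notes name TopHat2 2.1.1, HTSeq 0.11.0 and hg38. The annotation, strand setting and any removal of host reads are not given in the sources used here. The 5 summary lines of each file were left out, and the gene lines held 79.1% to 85.2% of its reads. Libraries differed in every pair by more than sampling noise (chi-square per degree of freedom at least 8.21).

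Genes were filtered with filterByExpr (minimum count 10, minimum total 15), scaled by TMM and tested with edgeR 4.0.16 in R 4.3.3 (quasi-likelihood F-test of the group alone), with Benjamini-Hochberg adjustment over all genes and a threshold of 0.05. The script was tested on simulated data, drawn for each gene independently and with larger changes than those of the replication and mitosis genes tested. That run does not show how well changes as small as these are found. CPM uses TMM-scaled library sizes, log2 CPM adds a prior count of 2, intervals are at 95%, and the number of tumours limits the precision. Each SE was computed back from the log2 fold change and the F statistic, and each interval from that SE with a t distribution. Both are therefore approximate. Floors for a count of 0 cover counting error only. Alternatives were DESeq2 1.42.0, limma-voom (limma 3.58.1), 3 other scalings, 2 other filters, library sizes without the 10 most abundant genes, a block for replicate number, leaving out each tumour, and, added after the data were seen, a leukocyte marker covariate and a fit without parental replicates 2 and 3. Positions and exon overlaps were looked up by symbol in GENCODE 29 (GRCh38), and RPKM was computed with its merged exon lengths. Values in every tumour are given for called genes, the 3 highest and 3 lowest fold changes of each group, 8 markers regardless of result (MKI67, PCNA, TOP2A, MCM2, E2F1, FOXM1, CCNB1 and CDK1), and, from the other lists, called genes and the 2 smallest p. From the other lists, 1 called gene is not reported here. Genes whose values are described beyond this rule were chosen after their values were seen. The genes and lists were chosen with earlier results of these data known.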

Additional observations from a re-analysis of the deposited data

Results flagged for a closer look

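Among 120 sets of 4 tumours examined, 3 held a value apart from the other 3 by Dixon's criterion at its 95% level, fewer than the 5% that chance gives. MCM6 was at 104 CPM in parental replicate 4, against 64.7 to 71.5 CPM in the other parental tumours. POLE was at 113 CPM in knockout replicate 4, against 92.9 to 95.1 CPM in the other knockout tumours. HMMR was at 29.3 CPM in knockout replicate 1, against 31.5 to 31.8 CPM in the other knockout tumours.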

How the results depend on the processing

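The number of S phase genes called (2) was 1 by limma-voom, where 3 had an unadjusted p under 0.05, and 5 with the leukocyte covariate. The number of mitotic genes called (1) was 0 by limma-voom (3 at an unadjusted p under 0.05), 0 with upper-quartile scaling (2 unadjusted) and 0 with a filter of 1 CPM in 4 libraries (3 unadjusted), 3 with no filter, 7 with the leukocyte covariate and 21 without parental replicates 2 and 3. Calls among the other listed genes (8) came to 13 by DESeq2, 20 with the leukocyte covariate and 34 without parental replicates 2 and 3. The share called over all genes was 14.6% with no filter and 26.9% to 32.6% in the other settings named here, against 27.0% in the reported fit. In the reported fit, 6170 of all 16219 genes tested had an unadjusted p under 0.05. The fits with the leukocyte covariate and without parental replicates 2 and 3 were added after the data were seen. Without those 2 tumours the parental mean of these genes is higher by construction. The cause of these shifts was not tested. Leaving out 1 tumour at a time gave 1 to 3 S phase calls and 0 to 4 mitotic calls. Mitotic calls were 0 in 6 of the 8 fits, which held 1 to 4 mitotic genes at an unadjusted p under 0.05. Calls among the other genes numbered 3 to 14, and those among all genes 3501 to 4721 (21.2% to 28.6%). The S phase median log2 fold change ran from -0.14 to 0.088, the mitotic median from -0.30 to -0.00069, and the difference between the mean fitted changes of mitotic and S phase genes (-0.15) from -0.18 to -0.092. Of the 48 genes, 17 changed sign in at least 1 of the fits that left out 1 tumour, 12 of them without parental replicate 4, and 12 did so in at least 1 of the 11 other alternatives, 9 of them without parental replicates 2 and 3. None was called with the changed sign. Among the genes given in every tumour these were MKI67 (-0.057 to 0.19), TOP2A (-0.0099 to 0.27) and CDK1 (-0.21 to 0.11) when 1 tumour was left out, and MKI67 (-0.060), TOP2A (-0.16), BIRC5 (-0.10) and PCNA (-0.070) without parental replicates 2 and 3.

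With the replicate number as a block, 2 S phase and 1 mitotic genes were called, the same genes as without it. Of all genes, 3871 were called (23.9%). Same-numbered tumours had correlations of -0.04, -0.02, -0.19 and 0.09 between their deviations from the group means. Of the parental tumours 0, and of the knockout tumours 1, correlated best with their own number, so no pairing by number was seen. With so few tumours a group, these values cannot exclude a pairing. At 4 tumours a group, the intervals of 23 of the 48 genes reached beyond a 1.5-fold change.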
